A study of Mus musculus with 6 samples.

Results

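The genes described here are 10 regulators through which neuronal activity reaches transcription: the CREB family genes Creb1 and Crem, the CREB coactivator genes Crtc1, Crtc2 and Crtc3, the acetyltransferase genes Crebbp and Ep300, and the MEF2 family genes Mef2a, Mef2c and Mef2d. They were chosen by name, and their members are every cytosine position assigned to one of these 10 genes, of 16822 gene names in the whole series. These came to 7329 of the 5240657 cytosine positions listed in at least 1 library.

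The series holds 6 RNA bisulfite sequencing (RNA BS-seq) libraries of cortical neurons from E16.5 (embryonic day) wild-type C57BL/6 mice, with male and female embryos pooled. Neurons were grown for 7 days in vitro, silenced overnight with 1 µM tetrodotoxin (TTX, a sodium channel blocker) and 100 µM DL-AP5 (an NMDA receptor blocker), and then depolarized with 55 mM KCl for 0, 2 or 6 h. All 3 groups, the 0 h controls included, received TTX and DL-AP5, and each group has 2 biological replicates. KCl depolarization of a whole dish opens voltage-gated calcium channels in all its neurons and is not synaptic activity.

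Calcium entering a depolarized neuron activates kinases that phosphorylate CREB, which sits on cAMP response elements of DNA and then recruits the acetyltransferases CBP (the product of Crebbp) and p300 (the product of Ep300). The CRTC proteins wait in the cytoplasm as phosphoproteins, and the phosphatase calcineurin releases them to the nucleus, where they bind CREB. MEF2 proteins bind A/T-rich elements, are held silent by class IIa histone deacetylases, and are freed by the same calcium signals. Crem also encodes ICER, a short repressor made from a promoter inside the gene that is itself switched on by CREB.

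In RNA BS-seq, bisulfite turns unmethylated cytosines into uracil, and a cytosine that stays unconverted is read as methylated (m5C). The deposited tables list a cytosine only where at least 10 reads cover it and at least 1 of them is unconverted, so a listed position is mostly 1 stray unconverted read and the number listed says little about methylation. Coverage summed over the listed cytosines, in which a read counts once for each of them it covers, ran from 1.64e+09 to 2.35e+09 per library. At cytosines covered by at least 5000 reads, the unconverted share was 0.0837% to 0.0869% in 5 libraries and 0.115% in 6 h replicate 1, which also listed the most positions. Neurons were represented by 11 of 11 marker genes, with a summed scaled coverage between 24490 and 29010 reads per position over the libraries, and single markers moved both ways (5 rose and 1 fell at 2 h, 4 and 2 at 6 h over 0 h, and 3 and 4 at 6 h over 2 h). Astrocyte markers were covered too, 6 of 6, with sums from 7350 to 7620 at 0 h and 2 h and 5865 and 5543 at 6 h, and 5 of the 6 fell between 0 h and 6 h. Of the oligodendrocyte lineage markers 5 of 6 were covered, with sums of 3026 and 3256 at 0 h, 2434 and 2437 after 2 h, and 3418 and 3387 after 6 h. Between 0 h and 2 h 3 of these 5 fell, between 2 h and 6 h 3 rose, and at 6 h over 0 h 3 were higher and 2 lower. Beside these marker counts, 18.3% of all genes tested rose and 20.7% fell at 2 h, 31.3% and 32.9% at 6 h over 0 h, and 31.4% and 31.4% at 6 h over 2 h. Of the microglia markers 1 of 6 was covered, Cx3cr1, which fell at each step, from 352 and 349.5 at 0 h to 210.5 and 211.3 after 6 h. Of the progenitor markers 4 of 6 were covered (1542 to 1944), while the defining marker genes of endothelium were at 0 of 4. A marker counts as covered here if a 100-base stretch of it held a listed cytosine in every library. Markers without such a stretch can still have had reads, so these counts do not show that a cell type was absent. The part of these other cells in the results below was not tested, and in bulk RNA fewer cells of a type and less RNA per cell cannot be told apart.

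Sequences are shown for the member cytosines that passed a filter on level and reads, and for the Mef2c pair with the highest mean levels among those listed in all 6 libraries after the Crtc1 cytosine, each as the 21 bases around the listed cytosine, 5′ to 3′ on the transcribed strand, with that cytosine in capitals (GRCm38 coordinates).
Crtc1, chr8:70382668, minus strand, 3′ UTR: gtggccataaCtccagaggcc
Crebbp, chr16:4084343, minus strand, coding exon: caggtgcgatCtccagcccct
Mef2a, chr7:67330935, minus strand, outside annotated exons: agtgcaagctCtctccagttt
Mef2c, chr13:83662332, plus strand, coding exon: tcatttatctCagagttcaaa
Mef2c, chr13:83665365, plus strand, 3′ UTR: cgcaacaaagCgagtgtaagt

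The first 3 are the cytosines that passed, in at least 1 library, a filter asking for 20 or more reads, 6 or more of them unconverted, and a level of 10% or higher. All 7329 contexts matched the GRCm38 genome, and no member position carried a second gene name. Of the positions, 3519 lay in coding sequence, 3440 in 3′ UTRs, 240 in 5′ UTRs, 8 in noncoding exons and 122 outside annotated exons.

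Coverage was the first readout. It was not possible to follow the same cytosines in all libraries for most of these genes: Mef2c had 224 cytosines listed in all 6 libraries, Crem and Mef2d had 2 each, Crtc1 and Mef2a had 1 each, and the other 5 genes had none. Coverage was therefore averaged over the listed cytosines in each 100-base stretch of the genome (a window), and a gene's level was its mean over the windows that held a listed cytosine in every library, scaled to the library. This measure was adopted after the values had been seen. Over genes measured both ways, its fold changes correlated with those of the shared cytosines with r between 0.987 and 0.993 (2075 genes, which are not independent replicates). The window values also stood higher than those of the shared cytosines, by a median log2 difference of 0.16 at 2 h and 0.11 at 6 h over 0 h, and lower by 0.05 at 6 h over 2 h, so a small fold change can depend on the measure. It gave 58 windows for Mef2c, 41 for Mef2d, 26 for Mef2a, 25 for Ep300, 24 for Crtc1, 12 for Crebbp, 6 for Creb1, 2 for Crem, 1 for Crtc2 and none for Crtc3, so the values for Crem and Crtc2 rest on little of the gene.

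Among the 9 genes that could be tested, 3 rose and 1 fell between 0 h and 2 h, where 18.3% of all 9570 tested genes rose and 20.7% fell by the same rule (edgeR adjusted p of at most 0.05). At 2 h this balance turned with other choices, to 2 rises and 3 falls without 2 h replicate 1 and to 2 and 2 with 200-base windows, which add Crtc3. Between 0 h and 6 h, 6 of the 9 rose and 1 fell, against 31.3% and 32.9% of all genes. Between 2 h and 6 h, 4 rose and 1 fell, against 31.4% and 31.4%. The median log2 fold change of the 9 genes was 0.12, 0.65 and 0.17 in these comparisons and that of all genes was -0.01 in each. Both comparisons with 0 h use the same 0 h libraries, so they are not independent of each other.

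**Figure D1:**
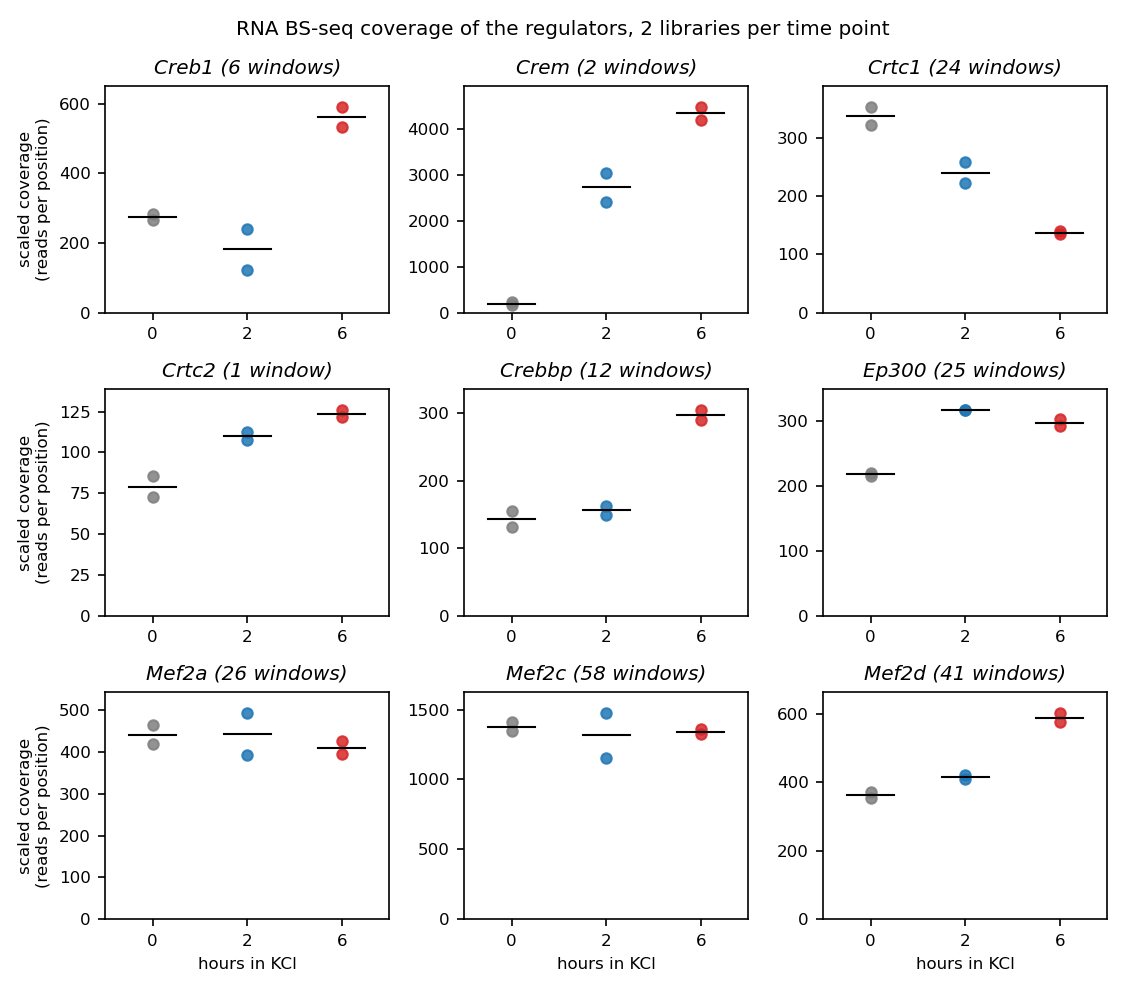
Scaled coverage (reads per position, linear axis from 0) of the 9 genes with windows shared by all libraries, by hours in KCl. Each point is 1 library and each bar the mean of 2; the mean of Crem climbs from 198 to 4342 reads per position, Crtc1 steps down at each time point, and Mef2a and Mef2c overlap between times.

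Crem, which encodes both full-length activators and repressors and the ICER repressor, showed the largest change of the 9 genes. Its scaled coverage was 170.5 and 225.0 reads per position in the 0 h replicates, 3046 and 2410 at 2 h, and 4488 and 4197 at 6 h. Every stimulated library stood above both controls, and both 6 h libraries stood above both 2 h libraries. The rise was 13.8-fold at 2 h (log2 fold change 3.79, SE 0.17, edgeR adjusted p = 1.62e-05) and 22.0-fold at 6 h (4.46, SE 0.17, edgeR adjusted p = 4.86e-06), and the further rise from 2 h to 6 h was 1.59-fold (0.67, SE 0.15, edgeR adjusted p = 0.00565). These values rest on 2 windows because 0 h replicate 2 listed only 6 Crem positions. Over the 5 windows shared by the other 5 libraries, a set chosen after seeing the data, scaled coverage was 121.7 in the remaining 0 h library, 2443 and 1837 at 2 h, and 3334 and 3205 at 6 h. That made 17.6-fold and 26.9-fold with 1 control library, and these values were not tested.

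The Crem reads lay almost wholly on its 3′ part. Crem occupies chr18:3266048-3337748 on the minus strand and has 39 annotated transcripts, of which 32 start far upstream and 7 start at or after position 3281769, inside the gene, as ICER does. Downstream of that internal start 264 positions were listed, 263 of them among the 487 exonic cytosines there. Upstream of it 9 were, 6 of them among 669 exonic cytosines. The highest downstream count of each library was 229 and 211 reads at 0 h, 3763 and 2478 after 2 h, and 4676 and 4948 after 6 h (raw reads). It was taken in each library on its own and is not the same cytosine throughout. The highest upstream count, taken in the same way, was 24 reads in 0 h replicate 1, 42 and 20 after 2 h, and 33 and 41 after 6 h. No upstream cytosine was listed in 0 h replicate 2. Of the positions downstream, 203 lie in exons that both kinds of transcript hold and do not tell them apart. Another 18, of 62 exonic cytosines there, lie in exon parts that only the 7 internally starting transcripts hold. Of these, 1 was listed in 0 h replicate 1, with 18 reads, and 0 in 0 h replicate 2. After 2 h 3 and 10 were listed, with up to 215 and 221 reads, and after 6 h 5 and 3, with up to 565 and 381 (raw reads). A further 42, all 3′ UTR, lie beyond the annotated 3′ ends of the internally starting transcripts, in parts that only upstream starting transcripts hold. Here too the highest raw reads were above those at 0 h after KCl, and 24 were listed in 0 h replicate 1 with up to 39 reads and 0 in 0 h replicate 2, 10 and 7 after 2 h with up to 636 and 413 reads, and 8 and 8 after 6 h with up to 327 and 426. No position of either kind was listed in all libraries, so these values were not tested, and they do not settle which transcripts were present. Upstream cytosines with few reads can be left off the list when all their reads were converted, so the upstream values describe the listed ones only.

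**Figure D2:**
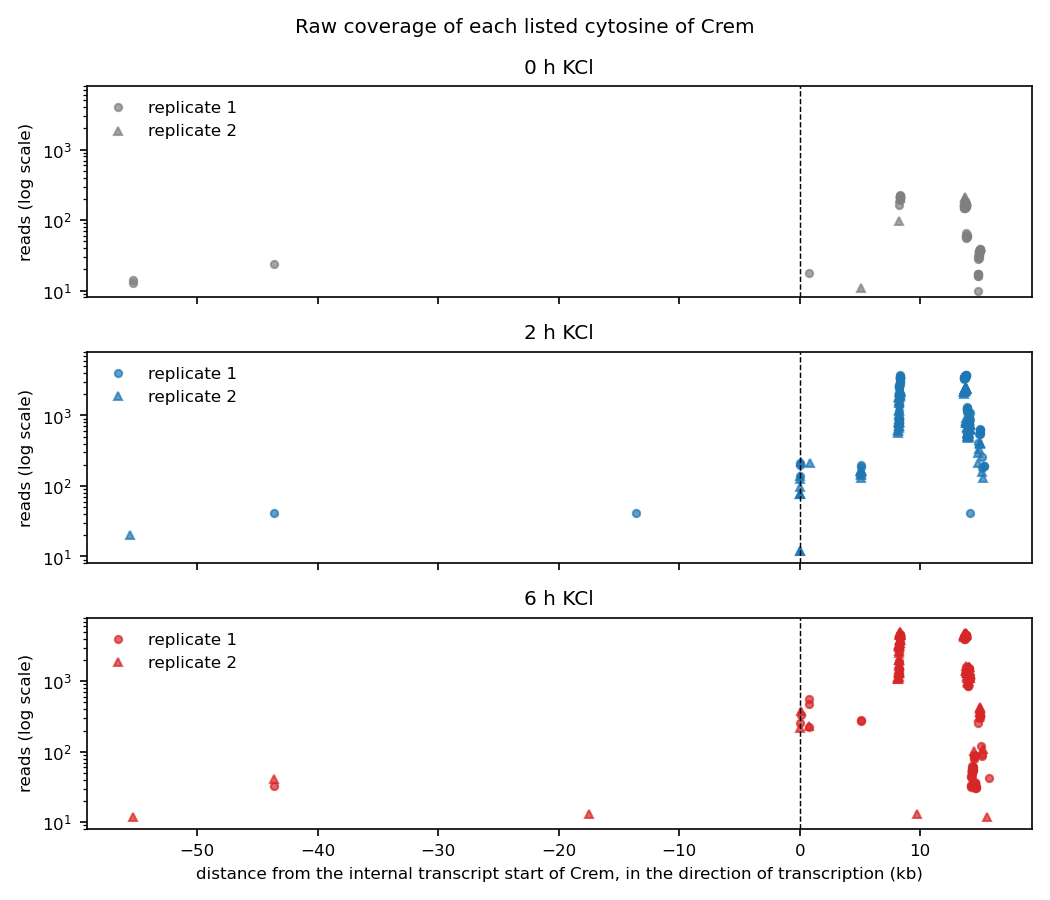
Raw read coverage (log axis) of each listed Crem cytosine against its distance in kb from the internal transcript start (dashed line), transcription running left to right, with circles for replicate 1 and triangles for replicate 2. Upstream cytosines stay at or below 42 reads in every library, while downstream ones reach 229 reads at 0 h, 3763 at 2 h and 4948 at 6 h.

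By Euclidean distance over the 6 libraries of gene-centred log2 scaled coverage, the genes with the pattern most like that of Crem among the 9570 were Sertad1 (distance 0.544), Pcsk1 (0.757) and Vgf (0.877). Pcsk1, a prohormone convertase gene, went from 26.9 and 35.0 reads per position at 0 h to 781 and 657 at 2 h and 894 and 839 at 6 h. Vgf, which encodes a neuropeptide precursor, went from 151 and 142 to 1277 and 1157 and then to 2166 and 2070.

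Creb1, which encodes CREB itself, moved little or downward at 2 h and upward by 6 h. Its scaled coverage was 284 and 266 at 0 h, 242 and 122 after 2 h, and 532 and 592 after 6 h. Both 6 h libraries stood above all others, while the 2 h replicates lay farther apart than those of the other groups. At 6 h Creb1 was 2.04-fold above 0 h (log2 fold change 1.03, SE 0.27, edgeR adjusted p = 0.0126) and 3.09-fold above 2 h (1.63, SE 0.28, edgeR adjusted p = 0.00175). The change at 2 h did not pass the test (log2 fold change -0.60, 95% interval -1.24 to 0.05, edgeR adjusted p = 0.127). In all 6 of its windows both 6 h libraries exceeded both 0 h libraries, as they did in 43.3% of all 137819 windows. The call at 6 h over 0 h was lost when 0 h replicate 1 (edgeR adjusted p = 0.0618), 0 h replicate 2 (0.081) or 6 h replicate 2 (0.0714) was left out, and the 2 h value became a fall of 1.18 (edgeR adjusted p = 8.08e-05) without 2 h replicate 1.

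Crtc1, the CRTC gene most associated with neurons, fell at each step. Its scaled coverage was 353 and 322 reads per position at 0 h, 222 and 258 after 2 h, and 140 and 135 after 6 h. The 3 groups did not overlap. It was 1.41-fold lower at 2 h (log2 fold change -0.49, SE 0.09, edgeR adjusted p = 0.00581), 2.46-fold lower at 6 h (-1.30, SE 0.10, edgeR adjusted p = 3.15e-05) and 1.75-fold lower at 6 h than at 2 h (-0.81, SE 0.10, edgeR adjusted p = 0.0003). Each of its 24 windows was lower in both 6 h libraries than in both 0 h libraries, where 33.0% of all windows were, and 22 of the 24 were lower in both 2 h libraries, against 22.9%. The fall at 2 h missed the threshold without 0 h replicate 1 (edgeR adjusted p = 0.052).

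Crtc2 had 1 window, at 72.7 and 85.4 reads per position at 0 h, 108 and 112 after 2 h, and 126 and 121 after 6 h. Both later groups stood above 0 h. Only the 6 h change passed (log2 fold change 0.65, SE 0.20, edgeR adjusted p = 0.0239), and it was lost without 0 h replicate 1 (edgeR adjusted p = 0.12), 6 h replicate 1 (0.0839) or 6 h replicate 2 (0.0663). At 2 h the log2 fold change was 0.48 (95% interval 0.00 to 0.95, edgeR adjusted p = 0.101).

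Crtc3 had 204 listed positions, 187 of them in a single library, and was the only one of the 10 with no 100-base window common to all libraries. In 200-base windows, an alternative chosen after seeing the data, it had 1, with 39.1 and 49.3 reads per position at 0 h, 23.7 and 18.5 after 2 h, and 33.1 and 32.8 after 6 h. The 2 h libraries were the lowest (log2 fold change from 0 h -1.03, SE 0.32, edgeR adjusted p = 0.039), and the 6 h difference from 0 h did not pass (-0.40, SE 0.30, edgeR adjusted p = 0.284).

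The acetyltransferase genes both stood higher at 6 h than at 0 h. Crebbp had 156 and 131 reads per position at 0 h, 163 and 150 after 2 h, and 305 and 290 after 6 h, so the 0 h and 2 h libraries overlapped and both 6 h libraries were higher. Its 6 h rise was 2.07-fold over 0 h (log2 fold change 1.05, SE 0.11, edgeR adjusted p = 0.000162) and 1.90-fold over 2 h (0.93, SE 0.11, edgeR adjusted p = 0.000329), and at 2 h the log2 fold change was 0.12 (95% interval -0.14 to 0.39). All 12 of its windows were higher in both 6 h libraries than in both 2 h libraries, against 35.5% of all windows.

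Ep300 rose by 2 h and did not pass the test between 2 h and 6 h. It had 221 and 215 reads per position at 0 h, 316 and 317 after 2 h, and 304 and 292 after 6 h. The rise was 1.45-fold at 2 h (log2 fold change 0.54, SE 0.07, edgeR adjusted p = 0.000842) and 1.37-fold at 6 h (0.45, SE 0.07, edgeR adjusted p = 0.00074). Both calls were lost when each library's own listed cytosines were averaged (0.80, edgeR adjusted p = 0.299, and 0.72, edgeR adjusted p = 0.23). The step of Ep300 from 2 h to 6 h was -0.09 (95% interval -0.24 to 0.06). Of its 25 windows, 21 were higher in both 2 h libraries than in both 0 h libraries and none was lower, against 35.5% and 22.9% of all windows. Whether the Crebbp and Ep300 responses differ was not tested.

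**Figure D3:**
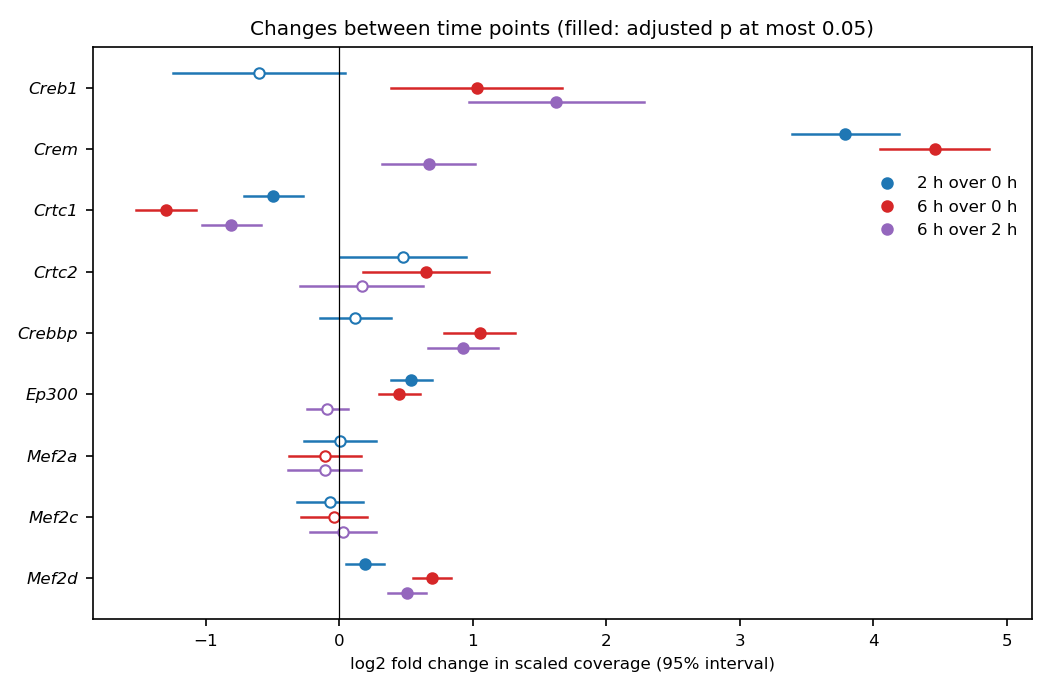
Log2 fold change in scaled coverage (horizontal axis, 95% intervals) of the 9 genes for 2 h over 0 h, 6 h over 0 h and 6 h over 2 h, with filled circles where the edgeR adjusted p was at most 0.05. Crem lies near 4 in both comparisons with 0 h, Crtc1 lies wholly below 0, and the intervals of Mef2a and Mef2c cross 0 in each comparison.

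Mef2c, a MEF2 gene of excitatory cortical neurons, was the deepest of the 9 genes after stimulated Crem. It had 1410 and 1347 reads per position at 0 h, 1476 and 1157 after 2 h, and 1326 and 1358 after 6 h. The 2 h replicates spanned all other libraries. No comparison passed, with log2 fold changes of -0.07 (95% interval -0.31 to 0.18), -0.04 (-0.29 to 0.21) and 0.03 (-0.22 to 0.28) for 2 h over 0 h, 6 h over 0 h and 6 h over 2 h. Without 2 h replicate 1 the first became -0.25 (edgeR adjusted p = 0.00816) and the last 0.21 (edgeR adjusted p = 0.0113), and both passed. Mef2c was also the only one of the 10 genes with enough cytosines shared by all libraries, 224, for the test on identical positions, which called 26.7% of 2075 genes at 2 h over 0 h, 61.2% at 6 h over 0 h and 49.9% at 6 h over 2 h. There it had 2275 and 2220 reads per position at 0 h, 2153 and 1685 after 2 h, and 1992 and 2045 after 6 h. The log2 fold change was -0.23 at 2 h (SE 0.11, edgeR adjusted p = 0.191), -0.16 at 6 h (SE 0.11, edgeR adjusted p = 0.277) and 0.07 from 2 h to 6 h (SE 0.11, edgeR adjusted p = 0.616). Without 2 h replicate 1 the fall at 2 h was 0.42 and passed (edgeR adjusted p = 0.00278), as did the value for 6 h over 2 h, 0.26 (edgeR adjusted p = 0.00929), and without 2 h replicate 2 that last value turned to -0.09. The value at 6 h over 0 h passed without 2 h replicate 1 (edgeR adjusted p = 0.0244) and without 2 h replicate 2 (0.0234).

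Mef2a had 464 and 418 reads per position at 0 h, 493 and 392 after 2 h, and 395 and 426 after 6 h, and the 3 groups overlapped. Its log2 fold changes were 0.01 (95% interval -0.27 to 0.28), -0.10 (-0.37 to 0.17) and -0.11 (-0.38 to 0.16), and none passed. The last of them passed without 2 h replicate 2 (-0.26, edgeR adjusted p = 0.0226).

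Mef2d rose late. It had 371 and 354 reads per position at 0 h, 420 and 408 after 2 h, and 601 and 574 after 6 h, without overlap between the groups. The rise at 6 h was 1.62-fold over 0 h (log2 fold change 0.70, SE 0.06, edgeR adjusted p = 6.25e-05) and 1.42-fold over 2 h (0.51, SE 0.06, edgeR adjusted p = 0.000322). The 2 h value, 0.19 (SE 0.06, edgeR adjusted p = 0.04), was near the threshold and missed it without either 0 h replicate (edgeR adjusted p = 0.087 and 0.211), without 2 h replicate 1 (0.0814) and without either 6 h replicate (0.0721 and 0.0834).

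At 2 h the parts of Mef2d moved unequally. Ordered from 5′ to 3′, 19 of its last 21 windows were higher in both 2 h libraries than in both 0 h libraries and none was lower, while of the first 20 windows 6 were higher and 5 lower (over all windows 35.5% higher and 22.9% lower). By 6 h, 17 of 20 and 20 of 21 were higher than at 0 h, and none was lower in either set (43.3% and 33.0% over all windows). This split was made after the values were seen and was not tested.

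Changes of single windows relative to the rest of their gene were tested with edgeR's diffSpliceDGE over 136806 windows, of which 0.422% passed for 2 h over 0 h, 0.954% for 6 h over 0 h and 0.605% for 6 h over 2 h. In the 10 genes, of which all but Crtc2 and Crtc3 had windows to test, 1, 3 and 1 of 194 windows passed in these comparisons (0.515%, 1.55% and 0.515%), shares near those of all windows. They were 2 windows of Mef2d, 1 of Crtc1, which passed in both comparisons with 6 h, and 1 of Mef2a. In Mef2d, a window of coding exon at chr3:88158001-88158100, present in 3 of 7 transcripts, had 771 and 749 reads per position at 0 h, 415 and 436 after 2 h, and 970 and 689 after 6 h. It was low in both 2 h libraries alone, and at 2 h over 0 h it fell by 1.03 on the log2 scale relative to the gene (edgeR adjusted p = 0.000571). The window chr3:88142501-88142600, in the first exon and 5′ UTR of 5 Mef2d transcripts, had 176 and 130 at 0 h, 344 and 185 after 2 h, and 655 and 628 after 6 h. At 6 h over 0 h it rose by 1.36 on the log2 scale beyond the gene (edgeR adjusted p = 2.75e-05). It held 3 and 1 listed cytosines at 0 h, 5 and 5 after 2 h, and 5 and 8 after 6 h. The coding window held 3 and 6, 5 and 3, and 8 and 5. The listed cytosines can differ between libraries, and the part of this in the window means was not tested. Both Mef2d windows passed without each library in turn.

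The Crtc1 window, chr8:70408901-70409000, lies in a coding exon of 4 of the 5 transcripts. Its means rest on 4 and 8 listed cytosines at 0 h, 6 and 2 after 2 h, and 2 and 2 after 6 h. It had 506 and 518 reads per position at 0 h, 315 and 430 after 2 h, and 89.7 and 107 after 6 h, a fall beyond that of the gene by 1.08 on the log2 scale at 6 h over 0 h (edgeR adjusted p = 0.00637) and by 1.11 at 6 h over 2 h (edgeR adjusted p = 0.00716). The first call was lost without 0 h replicate 2 (edgeR adjusted p = 0.168) or either 6 h replicate (0.292 and 0.0552), and the second without 2 h replicate 2 (0.099) or either 6 h replicate (0.365 and 0.0583). The Mef2a window, chr7:67372701-67372800, is 5′ UTR in the first exon of 7 of the 12 transcripts. It had 295 and 175 at 0 h, 69.4 and 246 after 2 h, and 60.9 and 107 after 6 h, and fell by 1.38 on the log2 scale relative to the gene at 6 h over 0 h (edgeR adjusted p = 0.0142). Its 2 h replicates overlapped both other groups, only 1 or 2 cytosines were listed in it per library, and the call was lost without 0 h replicate 1 (edgeR adjusted p = 0.616) or either 6 h replicate (0.737 and 0.103). Over annotated exon bins, Mef2c had 15 bins that could be tested and none passed in any comparison with edgeR or limma (0 at an unadjusted p under 0.05 with either tool). There the other genes had no bins to test, and 0.158%, 0.413% and 0.0703% of 11375 bins passed over all genes.

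**Figure D4:**
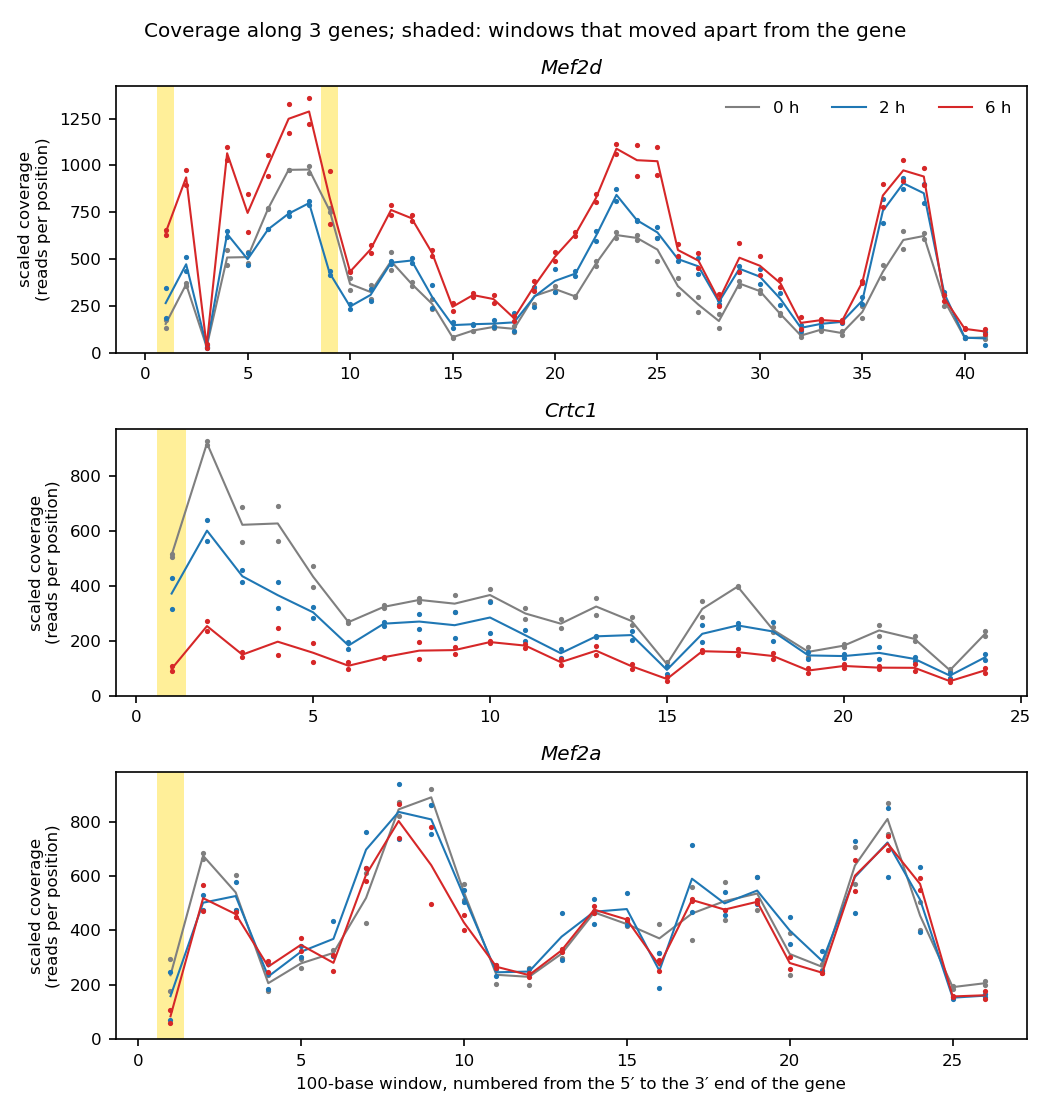
Scaled coverage (reads per position) of each 100-base window of Mef2d, Crtc1 and Mef2a, numbered from 5′ to 3′, with points for libraries, lines for the means of 2 and shading on the windows that passed relative to their gene. The 2 h line of Mef2d runs below the 0 h line near windows 6 to 9 and above it over windows 21 to 40, and the Crtc1 lines stack in the order 0 h, 2 h, 6 h.

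The regulators that act on these proteins were followed as a list of 36 kinases, phosphatases, anchors and class IIa deacetylases, of which 35 could be tested. At 2 h, 8 rose and 6 fell. At 6 h over 0 h, 15 rose and 7 fell, and from 2 h to 6 h, 11 rose and 8 fell. Of all genes, 18.3% rose and 20.7% fell at 2 h, 31.3% and 32.9% at 6 h over 0 h, and 31.4% and 31.4% from 2 h to 6 h. The balance of rises and falls in the list turned with other settings. Scaled by total coverage, 5 rose and 8 fell at 2 h, and 11 rose and 13 fell at 6 h over 0 h. With at least 3 windows a gene 6 rose and 8 fell at 2 h, and with at least 10 windows 9 rose and 10 fell at 6 h over 0 h. Without 2 h replicate 1, 11 rose and 12 fell from 2 h to 6 h. The median log2 fold changes of the list were 0.10, 0.06 and -0.04, near those of all genes. The salt-inducible kinases, which phosphorylate CRTC proteins and class IIa deacetylases, held the largest rises at 2 h. Sik1 went from 127 and 114 reads per position at 0 h to 549 and 567 at 2 h (log2 fold change 2.22, edgeR adjusted p = 1.14e-05), and Sik3 from 229 and 224 to 469 and 464 at 2 h and 1241 and 1196 at 6 h (2.43 at 6 h, edgeR adjusted p = 1.24e-06). Hdac9, a class IIa deacetylase that binds MEF2, had 306 and 262 at 0 h, 215 and 197 after 2 h, and 1212 and 1427 after 6 h (2.22 at 6 h over 0 h, edgeR adjusted p = 1.01e-05). The falls were smaller. Akap5, which anchors calcineurin and protein kinase A, fell by 1.00 on the log2 scale at 2 h (edgeR adjusted p = 0.0046), and Camk1g, a calcium/calmodulin-dependent kinase gene, by 0.84 (edgeR adjusted p = 0.000196). The genes of the kinases MSK1 and MSK2, which phosphorylate CREB, fell at 6 h: Rps6ka5 by 1.29 (edgeR adjusted p = 0.000257) and Rps6ka4 by 1.02 (edgeR adjusted p = 0.000785). Camk2g had 713 and 706 reads per position at 0 h and 442 and 452 at 6 h, and fell by 0.66 between 2 h and 6 h (edgeR adjusted p = 0.000243).

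Of the genes that CREB and MEF2 are known to switch on, a list of 36, 26 could be tested, and Arc, Arl4d, Crh, Egr2, Fosb, Gadd45b, Inhba, Klf4, Npas4 and Ppargc1a could not. At 2 h, 20 of the 26 rose and none fell, against 18.3% and 20.7% of all genes, with a median log2 fold change of 1.59. At 6 h over 0 h, 24 rose and 1 fell (median 2.00), against 31.3% and 32.9%. From 2 h to 6 h, 12 rose and 8 fell (median 0.28), against 31.4% and 31.4%. These genes are widely known activity genes, so their direction is not independent evidence. Fos had 35.2 and 40.1 reads per position at 0 h, 5855 and 5688 after 2 h, and 3314 and 2987 after 6 h (log2 fold change at 2 h 7.26, edgeR adjusted p = 1.49e-07). Nr4a1, an orphan nuclear receptor gene, rose by 6.13 at 2 h (edgeR adjusted p = 3.48e-07). Bdnf, the neurotrophin gene, had 39.1 and 48.7 at 0 h, 1112 and 835 after 2 h, and 1975 and 1874 after 6 h (5.46 at 6 h, edgeR adjusted p = 3.81e-06). The gene that fell at 6 h was Jun, an AP-1 subunit gene (-1.28, edgeR adjusted p = 4.02e-05). Between 2 h and 6 h the potassium channel gene Kcna1 rose by 2.59 (edgeR adjusted p = 6.48e-05) and Nptx2, a synaptic pentraxin gene, by 2.25 (edgeR adjusted p = 5.86e-05). In the same comparison Nr4a2 fell by 2.15 (edgeR adjusted p = 1.14e-05) and Junb by 1.59 (edgeR adjusted p = 0.000275). Kcna1 and Nptx2 had 1 window each and Bdnf 2, so their values rest on little of each gene.

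Of 11 other genes of the CREB/ATF and MEF2 families, 5 could be tested. At 2 h, where 18.3% of all genes rose, 1 rose, Atf4, the stress-response factor, from 2568 and 2442 reads per position to 10210 and 10450 (log2 fold change 2.04, edgeR adjusted p = 1.58e-06). At 6 h over 0 h all 5 tested rose, where 31.3% of all genes did, though 4 did without 0 h replicate 1, 0 h replicate 2 or 6 h replicate 2 and with the median over windows. Among them was Atf1, the closest relative of CREB (1.18, edgeR adjusted p = 0.00138), which had 1 window. From 2 h to 6 h, where 31.4% of all genes rose and 31.4% fell, 4 rose, Crebzf by 1.14 (edgeR adjusted p = 0.00118) and Atf2 by 1.02 (edgeR adjusted p = 0.00175) among them, and Atf4 fell by 0.20 (edgeR adjusted p = 0.0127), a call lost without 6 h replicate 2, with the median over windows and when each library's own listed cytosines were averaged.

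Methylation was the second readout. Each library listed between 2135 and 3341 of the member positions, the most in 6 h replicate 1, and 58.0% to 69.8% of those had a single unconverted read. Counts per gene differed between replicates of a time point, with Ep300 at 144 and 319 positions at 0 h and Mef2a at 260 and 105 at 2 h. Of the 7329 positions, 3507 were listed in 1 library and 230 in all 6. Over member cytosines with a level under 10% in every library, the share of unconverted reads was 0.246% and 0.304% at 0 h, 0.228% and 0.274% after 2 h, and 0.328% and 0.230% after 6 h, beside 0.163% to 0.233% over all genes. The replicates of each time lay farther apart than the means of the 3 times. These shares cover listed cytosines, each with at least 1 unconverted read, and so stand above the conversion background. They also differ with depth, from 0.153% to 0.325% over the libraries in the deep Mef2c and from 2.01% to 4.96% in the shallow Crtc3. Members and all genes were not matched for depth, so the gap between them does not show higher methylation in the members.

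The Crtc1 cytosine in the 3′ UTR, whose sequence is given above, was the only one of the 7329 to pass that filter in a pair of replicates, those of 0 h. It had 31 unconverted of 260 reads and 23 of 197 at 0 h, 18 of 141 and 6 of 128 at 2 h, and 11 of 96 and 5 of 87 at 6 h. The levels were 11.9% (95% Wilson interval 8.53 to 16.4) and 11.7% (7.91 to 16.9) at 0 h, 12.8% (8.23 to 19.3) and 4.7% (2.17 to 9.85) after 2 h, and 11.5% (6.52 to 19.4) and 5.7% (2.48 to 12.8) after 6 h. Replicate 2 was the lower at both later times, and the replicates of a later time lay farther apart than the group means of 11.8% ± 0.141, 8.75% ± 5.73 and 8.60% ± 4.10 (SD, n = 2). These intervals cover counting error only, since amplified reads are not independent molecules.

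**Figure D5:**
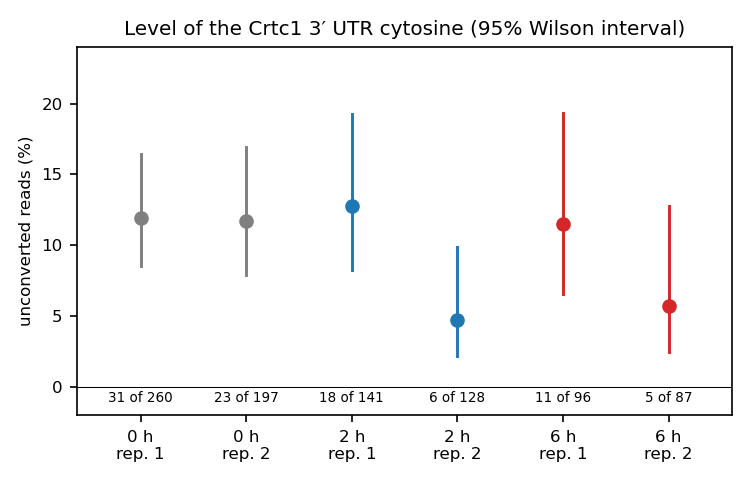
Share of unconverted reads (%) at the Crtc1 3′ UTR cytosine in each library, with 95% Wilson intervals and the unconverted and total reads below. In this plot 4 of the 6 libraries lie between 11.5% and 12.8%, and replicate 2 of 2 h and of 6 h lies at 4.7% and 5.7%.

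No change in its level passed. With reads summed over replicates, its level differed from 0 h by -2.89 percentage points after 2 h and -3.07 after 6 h, and by -0.18 between 2 h and 6 h, with Benjamini-Hochberg adjusted p of 0.575, 0.622 and 1.00 by two-sided Fisher's exact test. Leaving out a single library moved each of these differences and turned the sign of those after 2 h and between 2 h and 6 h. The ranges are in the closing section. Since the position entered the test through its level at 0 h, a lower later level is favoured by that choice. By the same test 13.1% of 1765 positions in all genes rose and 3.46% fell at 2 h, 9.49% of 1750 rose and 3.2% fell at 6 h over 0 h, and 13.0% of 1768 rose and 10.3% fell at 6 h over 2 h. Fisher's test takes no account of spread between replicates. With limma, 0 positions passed in each comparison, and 246, 55 and 105 had an unadjusted p under 0.05, while a quasi-binomial model also passed 0, with 251, 109 and 122.

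The Crebbp and Mef2a cytosines passed in 1 library each and were not followed through the series. The Crebbp cytosine, in coding sequence, had 10 unconverted of 51 reads in 2 h replicate 1 (19.6%, 95% Wilson interval 11.0 to 32.5) and 1 of 47 in 6 h replicate 2 (2.1%, 0.377 to 11.1), and was not listed in the others. The Mef2a cytosine, outside annotated exons, had 6 of 23 reads in 6 h replicate 2 alone (26.1%, 12.5 to 46.5). The Mef2c cytosine in coding sequence was listed throughout, at 0.3% and 2.1% at 0 h, 2.9% and 3.0% after 2 h, and 1.6% and 0.7% after 6 h, of 368 to 899 reads. That in the Mef2c 3′ UTR stood between 0.4% and 2.4%. Among member cytosines with at least 100 reads, none exceeded 12.8% in any library, and those over 1% numbered 92 to 242 per library, the most in 6 h replicate 1.

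The Crtc1 and Crebbp cytosines both open the letters CTCCA, read from the listed cytosine on the transcribed strand, the context in which the RNA methyltransferase NSUN6 is known to act. These letters followed 53 of the 7329 member positions (0.723%) and 0.738% of all listed positions outside the mitochondrial genome, and 11 of the 2226 positions of all genes that met the filter in both libraries of at least 1 group (0.494%). The match is a description of these letters and not evidence of the enzyme. Leaving out the Crtc1 cytosine, the member positions with these letters had an unconverted share of 0.267% to 0.526% over the 6 libraries, and the other member cytosines 0.232% to 0.330%.

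Mef2c alone of the 10 had many deep cytosines, 157 with at least 1000 reads in every library. Their unconverted share was 0.107% and 0.145% at 0 h, 0.110% and 0.120% after 2 h, and 0.187% and 0.0979% after 6 h, with 0 h replicate 2 and 6 h replicate 1 the highest. Over 1406 genes with at least 20 such cytosines, the median share was between 0.0961% and 0.101% in 5 libraries and 0.126% in 6 h replicate 1. Mef2c stood above the upper quartile of these genes in 0 h replicate 2 (0.122%) and 6 h replicate 1 (0.165%), and just above it in 2 h replicate 2 (0.1198% against 0.1195%), while the other replicate of each time stood below.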

How the data were processed

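The members and gene lists were chosen with earlier results of these data known. The authors trimmed the reads (Trim Galore), aligned them to mm10 (GRCm38) with meRanTK's bisulfite aligner and called positions, and the deposited tables hold read counts per listed cytosine (coverage, unconverted and mutated reads) and the level as a fraction of unconverted reads, given here in percent. Only positions with reference C and the methylated state were used. A read covers several cytosines, so coverage sums are not independent molecules, and p-values rest on the spread between 2 biological replicates a group.

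The planned test summed the coverage of cytosines listed in all libraries for genes with at least 10 of them. The 100-base window measure described in the results was added after the values were seen. Both were fitted on all genes and all 6 libraries with edgeR 4.0.16 (TMM, quasi-likelihood F-test), SEs were taken as the log2 fold change over the square root of F, and p-values were adjusted by Benjamini-Hochberg over all genes of a comparison and called at 0.05 or below. Levels are mean coverage per listed position over windows, divided by the library's TMM-scaled total. Windows and exon bins were tested with diffSpliceDGE, exons and UTRs were taken from GENCODE M21 (GRCm38). Sites were tested with Fisher's exact test on reads summed over replicates, at 10 or more reads in the 4 libraries compared. The read-level filters of the study's own site list were not repeated. Named genes were all members, the 2 largest called rises and falls per list and comparison, every called window, sites passing the filter of coverage 20, level 10% and 6 unconverted reads, and the 3 highest mean levels. Alternatives used DESeq2 1.42.0, limma 3.58.1 and the settings in the closing section. The gene test on windows, the exon bin test and the site test were also run on simulated counts, with outcomes not given here. The test on shared cytosines and that of single windows were not. Positions with several gene names were left out of gene sums. Scripts ran in R 4.3.3 and Python.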

Additional observations from a re-analysis of the deposited data

How the results depend on the processing

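A required fold of at least 2 ends every call under that fold: Crem, Crtc1, Crebbp and Mef2d at 6 h over 2 h, Crtc2, Ep300 and Mef2d at 6 h over 0 h, and Crtc1, Ep300 and Mef2d at 2 h. Under the other settings that could test them, of the 27 log2 fold changes of the 9 genes, those of Crem kept their call, as did Crtc1, Crebbp and Mef2d at 6 h over 0 h and Crtc1 and Crebbp at 6 h over 2 h. Averaging each library's own listed cytosines lost the calls of Ep300 at 2 h and 6 h over 0 h, Crtc1 at 2 h, Mef2d at 2 h and at 6 h over 2 h, and Creb1 at 6 h over both other times. Scaling by total coverage moved the median of all genes by -0.14 at 2 h and -0.13 at 6 h over 0 h and the higher share of called genes from 47.0% to 24.4% and from 48.8% to 37.3%, and lost Mef2d at 2 h and Crtc2 at 6 h. Crtc2 was also lost with DESeq2, Crtc1 at 2 h when the median over a gene's windows replaced their mean, and Mef2d at 2 h with that median, limma, 200-base windows and at least 3 or 10 windows. Values that turned were all small and uncalled: Crebbp at 2 h was -0.044 with own listed cytosines and -0.014 with total scaling, Mef2a at 2 h was -0.070 with at least 10 windows, -0.025 with at least 3, -0.002296 with limma, -0.13 with total scaling and -0.046 with 50-base windows, Mef2a at 6 h over 0 h was 0.069 with the median and 0.083 with own listed cytosines, and Mef2c at 6 h over 2 h was -0.033 with the median. The causes were not tested.

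The number of the 9 genes called was 3 higher and 1 lower at 2 h. It was 1 in all with a fold of at least 2, 2 with at least 3 or 10 windows or the median, and 0 with own listed cytosines, where edgeR could not test Crem and Crtc2, tested Crtc3 in addition, and gave 1 gene, Crtc3, an unadjusted p under 0.05. At 6 h over 0 h it was 4 with a fold of at least 2, 4 with at least 10 windows and 3 with own listed cytosines, and at 6 h over 2 h 1, 3 and 2.

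Counts over all genes in the window fit were 3734, 6149 and 6013 for 2 h over 0 h, 6 h over 0 h and 6 h over 2 h. They were 609, 1484 and 1353 with a fold of at least 2, 2140, 3532 and 3338 with at least 10 windows (fewer genes tested), and 440, 2300 and 1877 with own listed cytosines. On shared cytosines they were 553, 1269 and 1035, against 31, 100 and 30 with a fold of at least 2, 1329, 2890 and 2573 with at least 1 shared cytosine, and, for the last 2 comparisons, 2300 and 1877 with own listed cytosines. Exon bins called were 18, 47 and 8, against 9, 12 and 2 with at least 10 cytosines per bin and 55, 111 and 21 with limma. Windows called relative to their gene were 577, 1305 and 827, against 1050, 2295 and 1453 with limma. Sites called were 292, 222 and 412 by Fisher's test and 0, 0 and 0 by limma and by the quasi-binomial model.

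Leaving out 1 library at a time gave the following lowest and highest values. Genes called on shared cytosines ranged from 235 to 667, 899 to 1430 and 601 to 1156, and in the window fit from 2281 to 4175, 4899 to 6773 and 4659 to 6360. Member genes called ranged from 2 to 5, 5 to 7 and 5 to 6. Mef2c on shared cytosines ranged from -0.42 to -0.063, -0.19 to -0.14 and -0.093 to 0.26. Exon bins ranged from 1 to 99, 2 to 164 and 3 to 27, windows from 424 to 773, 629 to 1888 and 454 to 950, and sites from 188 to 290, 157 to 540 and 308 to 626, the highest of the last 2 without 6 h replicate 2. Signs turned within these ranges: Mef2c in windows from -0.25 to 0.10, -0.070 to 0.0061 and -0.14 to 0.21, Crebbp at 2 h from -0.0060 to 0.25, and Mef2a at 2 h from -0.17 to 0.16 and at 6 h over 2 h from -0.26 to 0.066. The Crtc1 site ranged from -7.13 to 0.95 percentage points at 2 h, from -6.07 (without 6 h replicate 1) to -0.36 (without 6 h replicate 2) at 6 h over 0 h, and from -4.02 to 4.06 between 2 h and 6 h. With 1 library left in a group, that library is assumed to vary like the others.

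Replicate numbers are shared by the groups, but nothing says that a number marks a shared culture, and deviations of same-numbered libraries correlated at 0.296 (0 h and 2 h), -0.114 (0 h and 6 h) and -0.103 (2 h and 6 h) over 9570 genes. With a replicate block, 3623, 6143 and 6046 genes were called in the window fit and 513, 1245 and 1005 on shared cytosines, and no call of the 9 genes changed. The unconverted share of the members, 0.269% as the mean of 6 libraries, was 0.261% under a level of 5% and 0.254% at 50 or more reads. Crtc2, Crtc3 and Crem had at most 2 shared windows, so their values rest on little of each gene.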
